A study of Homo sapiens with 18 samples.

Results

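THP-1 derivatives named ERDD and ERAA were compared on day 3, with 2 libraries of each line. These are 4 of the 18 RNA sequencing libraries of the series, and they were chosen by their titles. Both lines are derivatives of THP-1, a human monocytic leukaemia line with the MLL-AF9 fusion, and the labels give them the genotypes PHF8DD and PHF8AA. Both carry the treatment label 4-OHT, an active metabolite of tamoxifen that binds the oestrogen receptor and that was used at 100 nM to induce the PHF8 forms. The ERAA and ERDD groups therefore share the agent, its dose, the day and the cell line, and differ in the PHF8 form named in their labels. What ER, AA and DD stand for is not spelled out in the labels, and neither is the promoter of the construct or whether a line is 1 clone. The 2 libraries of another line, ERPHF8, carry no treatment label. They entered the model to estimate the spread between replicates, and their levels are given below as a further reference.

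PHF8 is a histone demethylase of the JmjC family, which removes repressive methyl marks from histones and in doing so can ease transcription. The series as a whole concerns how the type I interferon response is set by such enzymes in leukaemia and how that bears on self-renewal. Genes on none of the interferon gene lists used here are described first. Absence from these lists does not place a gene outside that response. Levels are in CPM, the reads of a gene scaled to 1e6 reads of its library. Changes are ERDD minus ERAA on the log2(CPM + 0.5) scale with the standard error of the fit, and for genes at about 1 CPM or less this scale gives too small a change. Genes were called higher or lower where limma gave a Benjamini-Hochberg adjusted p below 0.05 over the 13831 genes tested.

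The 6 libraries of these lines held 40.6 to 41.3 M reads. The median gene differed between replicates by 0.11 (log2) in ERAA and by 0.04 in ERDD, so the ERAA libraries stood further apart. The squared difference between replicates, in units of the counting variance, averaged 16.4 per gene in ERAA and 1.93 in ERDD, so neither pair was 1 library deposited again. The sources used here do not say that replicates came from separate cultures, so p-values measure only the spread between these libraries, which may be technical. Of 12 markers of monocytic leukaemia cells, 12 were detected above 1 CPM, at a summed 3498 and 3747 CPM in ERAA and 2601 and 2646 CPM in ERDD. Of 35 markers of other cell types, 22 were below 1 CPM in all 4 libraries. Their sum was 68.7 and 70.2 CPM in ERAA and 77.1 and 79.5 CPM in ERDD. The defining T cell and adult red cell genes CD3E, CD3D, HBA1, HBA2 and HBB had 0 to 4 reads in each of the 4 libraries. Of the 12 that could be tested, 3 were higher and 3 lower (25% each, against 34.8% and 33.3% of all genes tested). PAX5, a B cell factor, stood at 5.31 and 5.41 CPM in ERAA and 14.9 and 15.6 CPM in ERDD, and PRF1, the pore protein of killer cells, at 0.295 and 0.219 CPM in ERAA and 2.27 and 2.04 CPM in ERDD. HBG2, a fetal globin, stood at 10.6 and 9.99 CPM in ERAA and 20.9 and 20.6 CPM in ERDD, with a span that overlaps many genes. Of the 3 lower markers, 2 were at least 2-fold lower. EPOR, 1 of the 3 lower, stood at 12.4 and 13.0 CPM in ERAA and 5.60 and 5.11 CPM in ERDD, with a span that overlaps RGL3. The part of other cell types in the results was not tested. In bulk RNA, fewer cells that hold a transcript and less of it per cell cannot be told apart.

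Most genes differed, and most differences were small. Of the 13831 genes tested, 4807 were higher in ERDD (34.8%) and 4608 were lower (33.3%), together 68.1%. The median size of a called change was 0.44 (log2), and 71.6% of all genes tested moved by less than 0.5. The libraries of the lines did not overlap for 83.7% of the genes tested, so a lack of overlap is given below only as a description. A change of at least 2-fold was seen for 845 genes (6.11%), of which 316 were higher (2.28%) and 529 lower (3.82%). Of these, 237 of the higher and 525 of the lower genes are on no interferon list. At 4-fold or more, 37 of the 55 genes that were higher are on an interferon list, and 0 of the 41 that were lower. Of the 13798 tested genes whose symbol occurs only once, 225 are on an interferon list, so few are to be found in a set of 41. ERPHF8 had a mean between the ERAA and ERDD means for 793 of the 845 genes changed at least 2-fold, and for 52.0% of all genes tested. Those 845 were chosen for a wide gap between ERAA and ERDD, so the higher share is given as a description only.

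**Figure D1:**
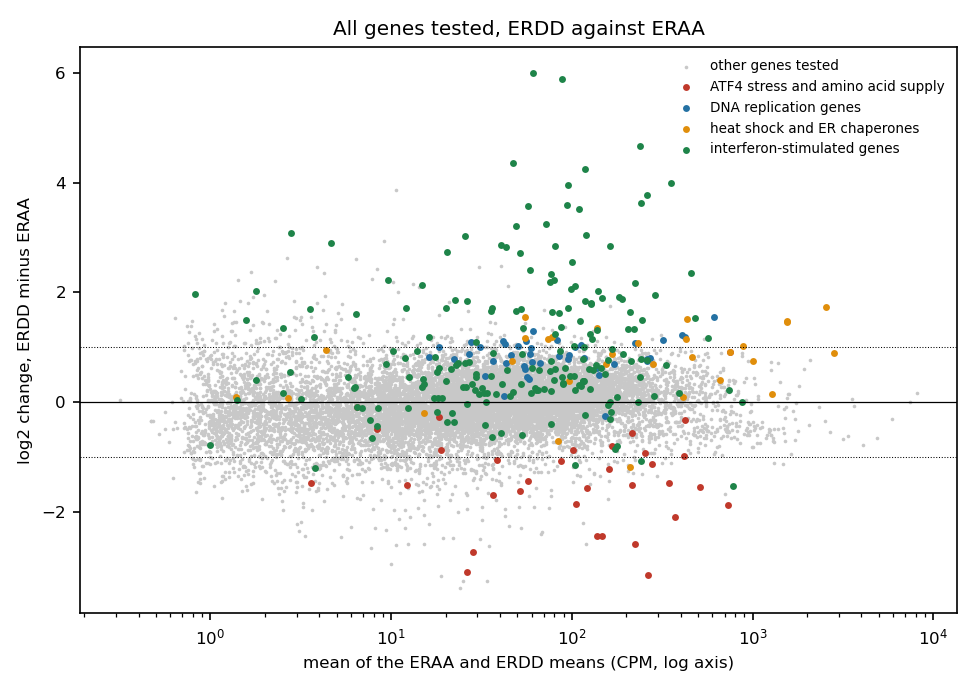
Change of each gene tested (log2, ERDD minus ERAA) against the mean of its ERAA and ERDD levels (CPM, log axis), with dotted lines at a 2-fold change. Of the amino acid supply genes 31 of 33 were called lower, of the chaperones 24 of 30 and of the replication genes 41 of 43 were called higher, and interferon-stimulated genes reach 6.0.

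PHF8 RNA itself was lower in ERDD. It stood at 2305 and 1996 CPM in ERAA and 1098 and 1119 CPM in ERDD, with a mean of 1906 CPM in ERPHF8. The ERDD libraries held the lowest levels and did not overlap ERAA, a log2 change of -0.95 ± 0.07 (adjusted p = 9.2e-06). The gene lies on chromosome X, 53936676 to 54048958 (hg38), and its reads were counted over its whole span, so the endogenous gene and a construct cannot be told apart. ESR1, the oestrogen receptor gene, stood at 275 and 247 CPM in ERAA and 124 and 126 CPM in ERDD, a log2 change of -1.05 ± 0.05 (adjusted p = 1.9e-06). Its span overlaps that of SYNE1 (4.1 and 3.77 CPM). Both groups carry the 4-OHT label, but the lines thus differed in the amount of PHF8 RNA as well as in its form, and in the comparison of ERDD with ERAA these cannot be told apart. Of 22 genes known to respond to oestrogen, 4 were higher (18.2%, against 34.8% of all genes tested) and 11 lower (50%, against 33.3%). The share called was 68.2%, against 68.1%, and the median -0.15, against 0.00. At least 2-fold higher was 1 of them, and 3 were at least 2-fold lower. STC2 (log2 -3.09), XBP1 (-1.17) and SLC7A5 (-0.97), also named below, and FKBP4 (1.08) are members of this list.

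Of the gene lists examined, amino acid supply had the lowest median change. When amino acids run short or proteins misfold in the endoplasmic reticulum, cells slow translation and make more of ATF4, a transcription factor. ATF4 switches on transporters, enzymes that make serine, asparagine and glycine, and stress regulators, and leukaemia cells are known to lean on several of these. Of 33 such genes tested, 31 were lower in ERDD (93.9%, against 33.3% of all genes tested) and 1 was higher, with 22 at least 2-fold lower. The median change was -1.47. Between 31 and 32 members were called when any 1 library was left out.

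ATF4 itself, picked after its values were seen, stood at 698 and 824 CPM in ERAA and 258 and 261 CPM in ERDD. Both ERDD values lay below both ERAA values, a log2 change of -1.54 ± 0.07 (adjusted p = 1.1e-06). ASNS, which makes asparagine, stood at 247 and 251 CPM in ERAA and 46.2 and 44.6 CPM in ERDD (log2 -2.44 ± 0.04, adjusted p = 9.7e-09). The ERDD level was 5.48-fold below that of ERAA, and ERPHF8 lay between them at 108 CPM. PSAT1, the second enzyme of serine synthesis, stood at 598 and 601 CPM in ERAA and 142 and 139.8 CPM in ERDD (log2 -2.08 ± 0.04). PHGDH, the first enzyme of that route and also picked after its values were seen, stood at 1112 and 1187 CPM in ERAA and 314 and 316 CPM in ERDD (log2 -1.87 ± 0.04). PSPH, the last enzyme, picked likewise, stood at 52.7 and 51.8 CPM in ERAA and 25.7 and 24.5 CPM in ERDD (log2 -1.04 ± 0.05). All 3 genes of the route fell, with no overlap between the lines.

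ASS1, which joins citrulline and aspartate on the way to arginine, was the most reduced member. It stood at 445 and 499.7 CPM in ERAA and 50.9 and 54.1 CPM in ERDD, 9-fold lower in ERDD (log2 -3.16 ± 0.06, adjusted p = 1.7e-08). The gene lies on chromosome 9, 130444929 to 130501274. DDIT4, a stress-induced inhibitor of the growth kinase mTORC1, stood at 375 and 395 CPM in ERAA and 63.8 and 64.6 CPM in ERDD (log2 -2.57 ± 0.04). STC2, a secreted glycoprotein, stood at 48.4 and 46.3 CPM in ERAA and 5.34 and 4.94 CPM in ERDD (log2 -3.09 ± 0.06), and CHAC1, which breaks down glutathione, at 47.6 and 52 CPM in ERAA and 7.07 and 7.1 CPM in ERDD (log2 -2.73 ± 0.06). In each of these genes the ERDD replicates lay close together and far below ERAA. ERPHF8 was near ERAA for CHAC1 (43 CPM) and DDIT4 (328 CPM), and nearer ERDD for ASS1 (126 CPM). SESN2, which signals leucine shortage to mTORC1, and SLC7A11, the cystine importer, fell by 1.70 and 1.62 on the log2 scale. SLC7A5, a transporter of large neutral amino acids, fell by 0.97. The member that was higher is HSPA5, the chief chaperone of the endoplasmic reticulum, picked after its values were seen, at 513 and 522 CPM in ERAA and 968 and 993 CPM in ERDD (log2 0.92 ± 0.04). ATF3, a stress factor, was not called (log2 -0.09, adjusted p = 0.34).

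Sites for ATF4 and its partners carry a composite element, searched here as TGATGNAA on both strands in RefSeq promoter windows (GRCh38.p14) from 250 bases before to 50 after each gene start. The table held 28 of the 33 genes, and 8 of them had a match (28.6%), against 2.81% of the tested genes with a window and 4.46% of all genes of the table. ATF3, CHAC1, ASNS, SLC3A2, SLC7A1, SLC1A5, SLC1A4 and CEBPG were the genes with a match. Here and for the motifs below, a gene counted as matched if any of its RefSeq starts had a match. All of these genes but CHAC1 and SLC7A1 have other RefSeq starts too. Distances are given to the start whose window held the match. A match is a description of these letters and not a measured binding site. Of these 8, 3 that fell are shown, to set the letters of the element beside their values. CHAC1 and ASNS are given above, and CEBPG was picked after its values were seen. CEBPG stood at 133 and 129 CPM in ERAA and 73.6 and 69.2 CPM in ERDD (log2 -0.87 ± 0.05). The element is in capitals, each on the strand of its gene.
CHAC1 (chr15:40953252-40953279, plus strand, 201 bases before the start, element on the opposite strand): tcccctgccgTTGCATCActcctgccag
ASNS (chr7:97872459-97872486, minus strand, 60 bases before the start): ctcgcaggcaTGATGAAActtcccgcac
CEBPG (chr19:33374061-33374088, plus strand, 34 bases before the start): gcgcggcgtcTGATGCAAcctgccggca

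Genes that load amino acids onto tRNA moved in both directions. Of 20 cytosolic aminoacyl-tRNA synthetases, 14 were lower (70%, against 33.3%) and 5 higher (median -0.58). CARS, the cysteine enzyme, stood at 152 and 149 CPM in ERAA and 70.7 and 71.1 CPM in ERDD (log2 -1.08 ± 0.04), and GARS, the glycine enzyme, at 359.8 and 359.8 CPM in ERAA and 191 and 186 CPM in ERDD (log2 -0.93 ± 0.04). The groups did not overlap for either. FARSA, a subunit of the phenylalanine enzyme picked after its values were seen, went the other way, with 99.1 and 101 CPM in ERAA and 179 and 179 CPM in ERDD (log2 0.84 ± 0.04). MARS (log2 -0.88) and WARS (log2 -1.07) overlap other genes and are uncertain.

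The 8 largest falls in CPM, a group chosen by direction, held 4 genes of translation and TPT1. The 4 were EEF2 and EEF1A1, the factors that move the ribosome along and deliver tRNA, PABPC1, which binds poly(A) tails, and RPS6, a protein of the small ribosomal subunit. EEF2 stood at 5063 and 5307 CPM in ERAA and 3001 and 3039.5 CPM in ERDD (log2 -0.78 ± 0.05). EEF1A1 stood at 5610.4 and 6302 CPM in ERAA and 3798 and 3808 CPM in ERDD (log2 -0.64 ± 0.07) and has many near-identical copies in the genome, which makes its count uncertain. TPT1 stood at 3708 and 4073 CPM in ERAA and 2457 and 2453 CPM in ERDD (log2 -0.66 ± 0.06), and RPS6 at 2947 and 3431 CPM in ERAA and 2178 and 2191 CPM in ERDD (log2 -0.54 ± 0.07). In EEF2, EEF1A1, TPT1 and RPS6 both ERDD libraries lay below both ERAA libraries, and the ERAA libraries were further apart from each other than the ERDD libraries.

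Ribosomal protein genes were taken as a family, defined by symbol after values had been seen. Of 83 cytosolic ribosomal protein genes tested, 75 were lower (90.4%, against 33.3% of all genes tested) and 3 higher (median -0.52). RPS26, picked after its values were seen, was 1 of the 3 (log2 0.92 ± 0.09). Their summed level was 69357 and 79091 CPM in ERAA and 52113 and 52467 CPM in ERDD. The ERAA replicates differed by more than the ERDD replicates, and the lower ERAA library still lay above both ERDD libraries. RPL13A, picked after its values were seen, stood at 1929.5 and 2293 CPM in ERAA and 1289 and 1317 CPM in ERDD (log2 -0.69 ± 0.08).

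Most chaperone genes tested rose. Heat shock proteins fold new and damaged proteins in the cytosol, and a related set does so in the endoplasmic reticulum. Of 30 such genes, 24 were higher in ERDD (80%, against 34.8% of all genes tested) and 3 lower, with 12 at least 2-fold higher (median 0.89). Together they held 10844 and 11162 CPM in ERAA and 21915 and 21921 CPM in ERDD. HSPA8, the constitutive cytosolic HSP70, had the largest gain in CPM of any gene on no interferon list. It stood at 1145 and 1198 CPM in ERAA and 3918 and 3906 CPM in ERDD, a log2 change of 1.74 ± 0.05 (adjusted p = 7.9e-08), and its gene lies on chromosome 11, 123057489 to 123063230. HSP90AB1, the constitutive HSP90, stood at 1926 and 1999 CPM in ERAA and 3667 and 3632 CPM in ERDD (log2 0.90 ± 0.05), and its stress-inducible relative HSP90AA1, whose span overlaps WDR20 (22.4 and 26 CPM), at 813 and 850.4 CPM in ERAA and 2298 and 2256 CPM in ERDD (log2 1.45 ± 0.04). The lines did not overlap in any of these genes, and ERPHF8 lay between them.

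HSPH1, which releases nucleotide from HSP70, rose by 1.52 on the log2 scale to 641 CPM. HSPA1B, the inducible HSP70, rose by 1.55 to 82.2 CPM, but it shares nearly all of its sequence with HSPA1A and is uncertain. CALR, a calcium-binding chaperone of the endoplasmic reticulum that also loads MHC class I, stood at 773 and 852 CPM in ERAA and 2242 and 2305 CPM in ERDD (log2 1.49 ± 0.05, adjusted p = 3.8e-07). In the mitochondria, HSPE1 and HSPD1, the co-chaperonin and chaperonin, rose by 1.36 and 1.02, although their neighbouring spans overlap and share reads. The 3 members that were lower were XBP1 (log2 -1.17), HERPUD1 (-0.70) and DNAJB9 (-0.20), of which XBP1 is a transcription factor of the unfolded protein response. DNAJB9 overlaps another gene.

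Heat shock factor binds repeats of a short unit, searched here on both strands as GAA, TTC and GAA in this order with any 2 bases between neighbours. Of the 30 genes, all with a RefSeq window, 6 had a match (20%), against 0.546% of the tested genes with a window. These 6 were HSPA8, HSPA6, HSP90AA1, HSP90AB1, DNAJA1 and HSPD1, of which HSPA6 was not called. HSP90AA1, HSP90AB1 and HSPD1 have other RefSeq starts too. The match is shown for the 3 genes with the largest gains in CPM, in capitals, on the strand of the gene, where the letters read as the reverse complement of the search.
HSPA8 (chr11:123062171-123062199, minus strand, 42 bases before the start): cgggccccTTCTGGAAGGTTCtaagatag
HSP90AB1 (chr6:44247823-44247851, plus strand, 99 bases before the start): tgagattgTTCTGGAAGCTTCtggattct
HSP90AA1 (chr14:102087112-102087140, minus strand, 75 bases before the start): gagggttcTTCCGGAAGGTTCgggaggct

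Genes of DNA replication were higher almost without exception. The MCM proteins form the helicase that opens DNA at origins, and they are made as cells enter S phase. Of 43 replication genes, 41 were higher in ERDD (95.3%, against 34.8%), 14 of them at least 2-fold, and 1 was lower (median 0.83). MCM3 stood at 317 and 308 CPM in ERAA and 908 and 925 CPM in ERDD (log2 1.55 ± 0.04, adjusted p = 5.4e-08). MCM4 stood at 248 and 243 CPM in ERAA and 572 and 573 CPM in ERDD (log2 1.22 ± 0.04) and MCM5 at 198 and 199 CPM in ERAA and 436 and 439 CPM in ERDD (log2 1.14 ± 0.04). MCM7 rose by 1.19, with a span that overlaps AP4M1 (30.3 and 34.4 CPM). Both ERDD libraries lay above both ERAA libraries for each MCM gene named. Picked after their values were seen, CDC6, which loads the helicase, rose by 1.13, the S-phase cyclin CCNE1 by 1.09, and TK1, which makes thymidine nucleotides, by 1.08. The member that was lower was the licensing factor CDT1 (log2 -0.25).

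Mitosis genes were higher too, but by less. Of 41, 39 were higher (95.1%, against 34.8%) and 0 lower, and 0 reached 2-fold (median 0.58). The ERPHF8 mean lay between the ERAA and ERDD means for 12 of the 39. The summed level of the list was 6509 and 6493 CPM in ERDD and 6742 and 6863 CPM in ERPHF8. BUB1, a kinase of the spindle checkpoint, stood at 93.7 and 90.2 CPM in ERAA and 175 and 177 CPM in ERDD (log2 0.93 ± 0.04), and the spindle protein NUSAP1 at 149.9 and 151 CPM in ERAA and 263 and 266 CPM in ERDD (log2 0.81 ± 0.04). The condensin subunit NCAPH rose by 0.94 and the checkpoint target CDC20 by 0.85. Leaving out any 1 library left 37 to 40 of these genes called. The cell cycle inhibitor CDKN1A (p21) was also higher in ERDD, at 73.5 and 77.9 CPM in ERAA and 184 and 189 CPM in ERDD (log2 1.30 ± 0.05, adjusted p = 3.2e-07). Its list of cell cycle inhibitors and p53 targets held 28 genes tested. Of these, 14 were lower (50%, against 33.3% of all genes tested) and 7 higher (25%, against 34.8%), CDKN1A among the 7. ZMAT3, an RNA-binding p53 target, fell by 1.30, and BTG1, an antiproliferative gene, by 1.01.

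**Figure D2:**
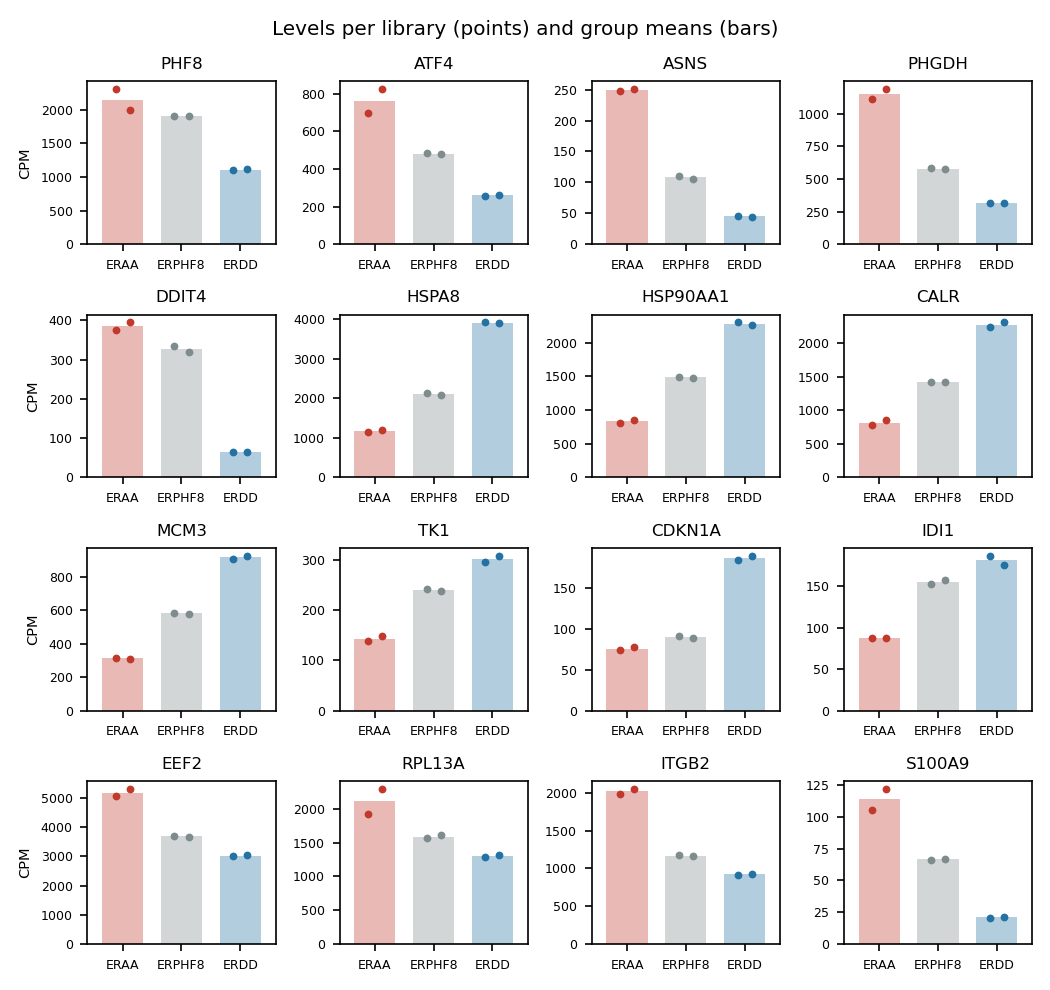
Levels of 16 genes in CPM, on linear axes from 0, in each library (points) with the mean of each line (bars, n = 2). In each panel the ERAA and ERDD points do not overlap, and the ERPHF8 mean lies between theirs.

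The list of ribosome biogenesis and MYC targets went mostly up. The nucleolar factors that process ribosomal RNA are classic targets of MYC. Of its 41 genes, which include the chaperonins HSPD1 and HSPE1, 38 were higher (92.7%, against 34.8% of all genes tested) and 1 lower (median 0.57). NOLC1, a nucleolar scaffold, stood at 149.6 and 150.4 CPM in ERAA and 254 and 254 CPM in ERDD (log2 0.76 ± 0.04), and NCL, the abundant nucleolar protein nucleolin, at 948 and 955 CPM in ERAA and 1588 and 1566 CPM in ERDD (log2 0.73 ± 0.04). Neither gene overlapped between the lines. MYC RNA itself was lower, at 349 and 364 CPM in ERAA and 219.9 and 228 CPM in ERDD (log2 -0.67 ± 0.04, adjusted p = 5.6e-06).

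Most respiratory chain, proteasome and sterol genes tested rose as well. Of 37 nuclear-encoded respiratory chain subunits, 30 were higher (81.1%, against 34.8%) and 2 lower (median 0.41). SDHA, the catalytic subunit of complex II, stood at 153 and 161 CPM in ERAA and 261 and 264 CPM in ERDD (log2 0.74 ± 0.04), and CYC1, cytochrome c1, at 140.0 and 151 CPM in ERAA and 240.2 and 246 CPM in ERDD (log2 0.74 ± 0.05). The next 2 families were defined by symbol after values had been seen. Of 77 mitochondrial ribosomal proteins, 54 were higher (70.1%, against 34.8%) and 7 lower (9.09%, against 33.3%). Of 39 proteasome subunits, 37 were higher (94.9%) and 1 lower (2.56%), and 3 of the 39 are on an interferon list.

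Of 31 genes of sterol and fatty acid synthesis, 27 were higher (87.1%, against 34.8%) and 3 lower (median 0.54). Their summed level was 6196 and 6182 CPM in ERDD and 6588 and 6606 CPM in ERPHF8. IDI1, an isomerase of the isoprenoid route, stood at 87.1 and 87.9 CPM in ERAA and 187 and 176 CPM in ERDD (log2 1.04 ± 0.04, adjusted p = 7.6e-07), and SQLE, which makes the first oxygenated sterol precursor, rose by 0.99. The transcription factor SREBF2, which drives these genes and was picked after its values were seen, was lower (log2 -0.33 ± 0.04). Replication and sterol genes with a RefSeq window (36 and 25) had 0 matches to either of the motifs above.

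**Figure D3:**
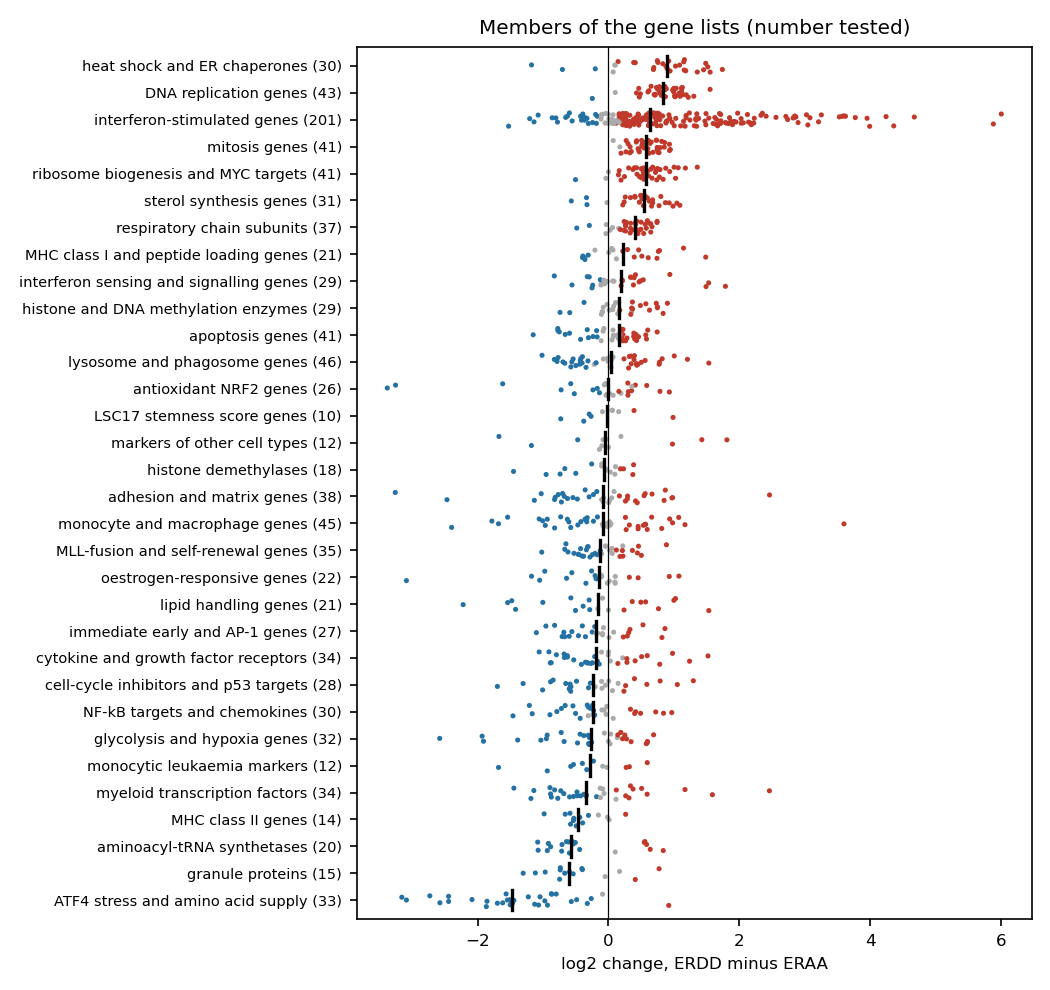
Each point is 1 gene of a list, at its change in ERDD minus ERAA (log2): red for called higher, blue for called lower, grey for not called, with a black bar at the median. Lists are ordered by median, from chaperones (0.89) to amino acid supply (-1.47), with the number of genes tested in brackets.

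Outside the interferon lists, the largest rises were in genes of low level, several of them surface proteins. Whether these genes respond to interferon was not tested. OTOF, which encodes the calcium sensor otoferlin, stood at 1.16 and 0.731 CPM in ERAA and 20 and 20.6 CPM in ERDD. The ERDD values were close together and well above ERAA, a log2 change of 3.86 ± 0.14 (adjusted p = 3.2e-07). AXL, a receptor tyrosine kinase that clears dying cells and dampens innate signalling, stood at 2.06 and 1.44 CPM in ERAA and 16.9 and 16.3 CPM in ERDD (log2 2.94 ± 0.13, adjusted p = 9.9e-07). Its gene lies on chromosome 19, 41219203 to 41261766. EPHB2, a receptor for membrane-bound ephrins, stood at 0.319 and 0.439 CPM in ERAA and 4.7 and 5.19 CPM in ERDD (log2 2.63 ± 0.13), a 13-fold gain from a level below 1 CPM.

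Transcription regulators were among them. ID1, which holds basic helix-loop-helix factors off DNA, stood at 8.41 and 9.94 CPM in ERAA and 52 and 53 CPM in ERDD (log2 2.46 ± 0.09, adjusted p = 3.7e-07), and its relative ID3, picked after its values were seen, at 7.91 and 10.1 CPM in ERAA and 28.1 and 27.7 CPM in ERDD (log2 1.59 ± 0.11). DLX3, a homeobox factor, stood at 1.4 and 1.49 CPM in ERAA and 11.4 and 11.3 CPM in ERDD (log2 2.61 ± 0.18). All 3 separated the lines, and for DLX3 the ERPHF8 mean (1.83 CPM) was near ERAA. MYBPH, a myosin-binding protein, was the most abundant of the 15 largest rises at 11.8 and 12.4 CPM in ERAA and 67.8 and 70.5 CPM in ERDD (log2 2.47 ± 0.06). IL2RB, the shared receptor chain for interleukins 2 and 15, rose from a mean of 1.06 to 7.47 CPM (log2 2.35).

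Others among the 15 largest rises were MOXD1, a copper-dependent monooxygenase (log2 2.23), ADAMDEC1, a metalloprotease of macrophages (2.20), ENHO, a secreted peptide (2.43), RASL11A, a small GTPase (2.19), and C1orf186 (2.14). ART3, an ADP-ribosyltransferase relative (log2 2.22), overlaps other genes and is uncertain. It holds within its span the interferon-induced chemokine gene CXCL10, which stood at a mean of 1.6 CPM in ERDD.

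The largest falls outside the amino acid list also included secreted and surface proteins. VEGFA, the vascular growth factor, stood at 215 and 198 CPM in ERAA and 35.2 and 33.1 CPM in ERDD. ERDD was 6.04-fold below ERAA (log2 -2.58 ± 0.07, adjusted p = 6.7e-08), and ERPHF8 stood between them at 107 CPM. G0S2, an inhibitor of the lipase that opens fat droplets, stood at 32.3 and 36.6 CPM in ERAA and 3.27 and 3.54 CPM in ERDD (log2 -3.16 ± 0.08). INHBE, an activin subunit, stood at 17.8 and 18.1 CPM in ERAA and 2.14 and 1.65 CPM in ERDD (log2 -2.95 ± 0.10), and ADM2, a peptide of the calcitonin family, at 59.8 and 60.1 CPM in ERAA and 9.87 and 8.94 CPM in ERDD (log2 -2.61 ± 0.06). Each of these genes separated the lines by more than 4-fold.

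The same 15 falls held 2 immune surface genes. CR1, a complement receptor, stood at 15.8 and 11.7 CPM in ERAA and 1.66 and 1.82 CPM in ERDD (log2 -2.66 ± 0.15), and ULBP1, a ligand that marks cells for natural killer cells, at 19.6 and 17.8 CPM in ERAA and 2.7 and 2.62 CPM in ERDD (log2 -2.60 ± 0.08). COL6A1, a chain of collagen VI on the adhesion and matrix list, fell by 2.47 to a mean of 5.55 CPM. SULF2, which trims sulphate from heparan chains (log2 -3.26), NDUFA4L2, a mitochondrial protein (-2.59), and the adaptor AJUBA (-2.59) overlap other genes and are uncertain. SULF2 overlaps NCOA3, which itself stood at 54.2 and 33.9 CPM, and NDUFA4L2 overlaps SHMT2 (321 and 112 CPM). AKR1C1 and AKR1C2, reductases of steroids and aldehydes, were lower (log2 -3.38 and -3.25), but they are near-identical and overlap, so they cannot be counted as independent genes.

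**Figure D4:**
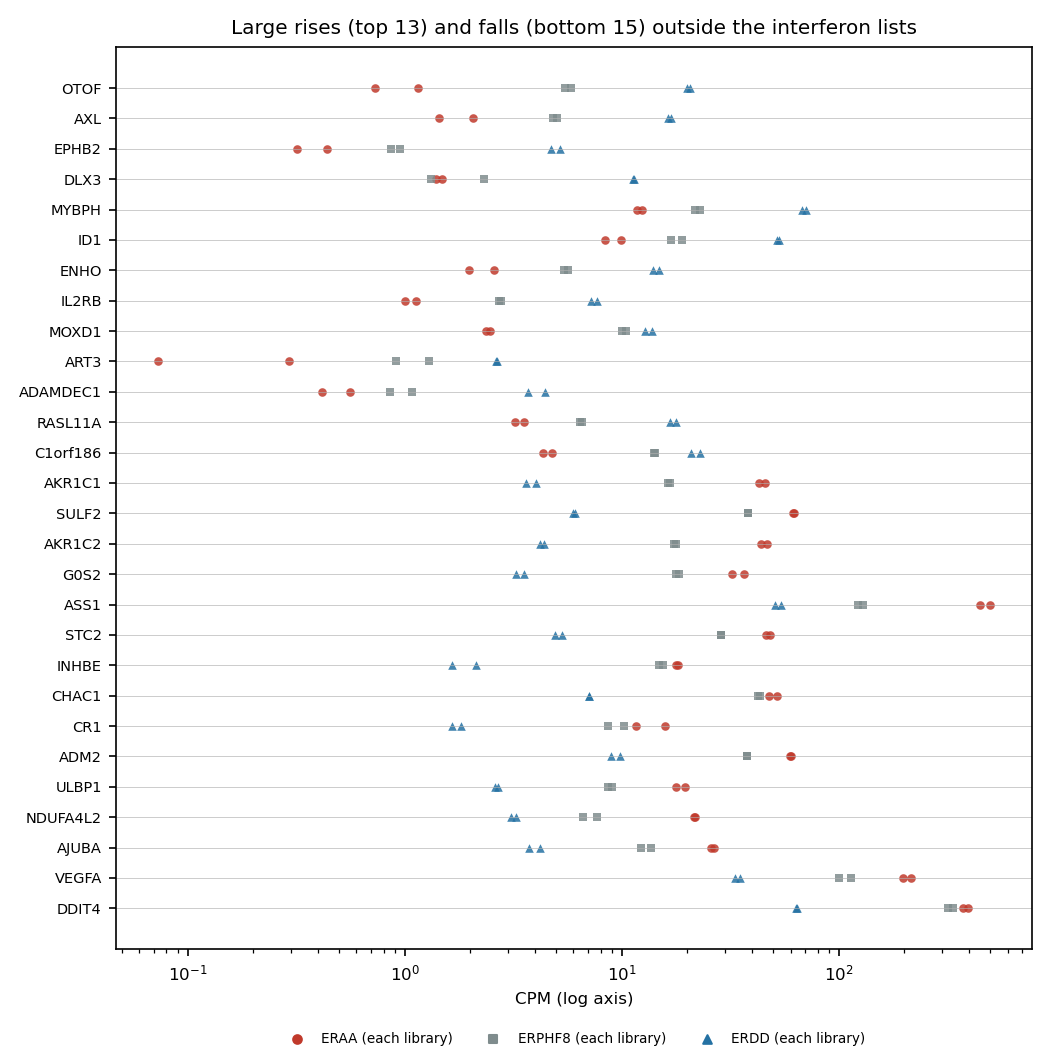
Levels of 13 of the 15 largest rises and of the 15 largest falls outside the interferon lists, in CPM on a log axis, with 1 point per library. The ERAA (circles) and ERDD (triangles) libraries do not overlap for any of the 28 genes, a condition of their choice. Squares are the single ERPHF8 libraries, whose mean lies between the ERAA and ERDD means for each of the 28. For DLX3, ERPHF8 replicate 1 (1.33 CPM) lies below both ERAA libraries (1.4 and 1.49 CPM).

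Genes of sugar use and low oxygen were split. Of 32, 17 were lower (53.1%, against 33.3% of all genes tested) and 10 higher (31.2%, against 34.8%; median -0.27). Besides VEGFA, MXI1, an antagonist of MYC, stood at 92.6 and 90.6 CPM in ERAA and 43.9 and 45.2 CPM in ERDD (log2 -1.03 ± 0.04), and NDRG1, a hypoxia-induced stress gene, fell by 0.68. Picked after their values were seen, the glucose transporter SLC2A3 fell by 1.91, whereas the glycolytic enzymes LDHA and ENO1 rose by 0.59 and 0.58. ALDOC, an aldolase (log2 -1.93), overlaps another gene and is uncertain. The antioxidant list was even by count, with 9 of 26 higher and 9 lower, 34.6% each and so near the shares of all genes (median -0.01). By size it was not, with 3 members at least 2-fold lower and 0 at least 2-fold higher. The 3 were AKR1C1 and AKR1C2 (log2 -3.38 and -3.25), which overlap each other, and SLC7A11 (-1.62). PRDX1, a peroxidase whose span overlaps another gene, rose by 0.79.

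Lipid genes were split. Of 21, 8 were higher (38.1%) and 10 lower (47.6%; median -0.16). APOE, which carries cholesterol out of macrophages, stood at 23.8 and 25.7 CPM in ERAA and 8.24 and 8.12 CPM in ERDD (log2 -1.54 ± 0.07). MYLIP, which degrades the LDL receptor, fell by 1.00, and the cholesterol exporters ABCG1 and ABCA1, picked after their values were seen, fell by 2.22 and 1.42. FABP5, a fatty acid carrier, stood at 28.8 and 29.8 CPM in ERAA and 60.7 and 59.5 CPM in ERDD (log2 1.02 ± 0.05). LIPA, the lysosomal lipase, was higher (log2 1.53 ± 0.04), but its span holds IFIT1, IFIT2 and IFIT3, whose own rises are counted in it.

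Monocyte genes moved in both directions. Of 45 monocyte and macrophage genes, 16 were higher (35.6%, against 34.8%) and 21 lower (46.7%, against 33.3%; median -0.08), with 3 and 6 at 2-fold or more. S100A9, a calcium-binding protein abundant in monocytes, stood at 106 and 122 CPM in ERAA and 20.8 and 21.6 CPM in ERDD (log2 -2.40 ± 0.07, adjusted p = 1e-07). Its partner S100A8, picked after its values were seen, fell by 1.78. FCER1G, a signalling chain of Fc receptors, stood at 1001 and 1134 CPM in ERAA and 333 and 332 CPM in ERDD (log2 -1.68 ± 0.06), and CSF3R, the receptor for granulocyte colony-stimulating factor, at 151 and 145 CPM in ERAA and 70.2 and 71.5 CPM in ERDD (log2 -1.06 ± 0.04). All of these fell without overlap between the lines. SIGLEC1, a sialic acid receptor that is also interferon-induced, went the other way, at 15.6 and 12.4 CPM in ERAA and 173 and 173 CPM in ERDD (log2 3.60 ± 0.09). VCAN, a proteoglycan picked after its values were seen, rose by 0.98. CSF1R, the receptor for macrophage colony-stimulating factor, rose by 0.59 to 293 CPM, and CD4 fell by 0.93 to 194 CPM.

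Myeloid transcription factors fell more often than they rose, with 19 of 34 lower (55.9%, against 33.3%) and 10 higher (median -0.34). CEBPB, which drives late myeloid and inflammatory genes, stood at 82 and 85.5 CPM in ERAA and 30.5 and 30.4 CPM in ERDD (log2 -1.44 ± 0.06). CEBPD, its relative, stood at 143 and 148 CPM in ERAA and 62.8 and 64.6 CPM in ERDD (log2 -1.18 ± 0.05), and CEBPA, needed for granulocyte and monocyte formation, fell by 0.53. LMO2, a factor of blood stem cells, fell by 0.77. Of 15 granule proteins, 11 were lower (73.3%) and 2 higher (median -0.60). CTSG, AZU1 and ELANE, proteins of primary granules, fell by 1.12, 0.73 and 0.60, while SRGN, the proteoglycan that packs granules, rose from 1538 to 2625 CPM (log2 0.77).

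Of 14 MHC class II genes, 10 were lower (71.4%, against 33.3% of all genes tested) and 1 higher (median -0.47), and CD74, the invariant chain, stood at 543 and 602 CPM in ERAA and 285 and 294 CPM in ERDD (log2 -0.98 ± 0.05). HLA-DRB1 and HLA-DRB5 fell by 0.59 and 0.58, but share sequence. Of 21 genes of MHC class I and peptide loading, 9 are on an interferon list. Among the 21, 11 were higher (52.4%, against 34.8%) and 5 lower (23.8%, against 33.3%; median 0.22). The 5 were heavy chains, among them HLA-B (log2 -0.40, picked after its values were seen). PSME2, a proteasome activator, and the peptide transporter TAP1 rose by 1.15 and 0.76, with spans that overlap other genes. Among the 11 members that overlap no other gene, the median was -0.21.

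Genes tied to MLL fusions and self-renewal showed small changes. Of 35, 18 were lower (51.4%, against 33.3%) and 9 higher (median -0.13), and 1 reached 2-fold. Without ERDD replicate 1, 16 of the 34 then tested were called in place of 27 of 35. Besides MYC, PBX3, a partner of HOX proteins, stood at 344 and 324 CPM in ERAA and 251 and 254 CPM in ERDD (log2 -0.40 ± 0.05), and TCF4, a helix-loop-helix factor, at 9.73 and 8.46 CPM in ERAA and 17.5 and 16.8 CPM in ERDD (log2 0.88 ± 0.08). CTNNB1, which encodes beta-catenin and overlaps another gene, rose by 0.44. HOXA9, a hallmark of MLL-fusion leukaemia, picked after its values were seen, stood at 131 and 129.5 CPM in ERAA and 135 and 135 CPM in ERDD and was not called (log2 0.05 ± 0.04, adjusted p = 0.27). It overlaps another gene. Of 10 tested genes of a leukaemia stemness score, 2 were higher and 4 lower (60% called, below the 68.1% of all genes tested; median -0.02). Only 2 of them were called without ERDD replicate 1 and 3 without ERDD replicate 2. LAPTM4B, a lysosomal membrane protein of that score, rose by 0.39, and ZBTB46, a zinc finger factor, fell by 0.73.

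Of the 2 lists of chromatin enzymes, that of methylation enzymes held more genes higher than lower. Of 18 histone demethylases, 4 were higher (22.2%, against 34.8% of all genes tested) and 6 lower (33.3%, the share of all genes tested). Together 55.6% were called, against 68.1% of all genes tested. Their median was -0.06, and 0.06 without ERAA replicate 1. KDM6B, which removes a Polycomb mark, stood at 26.6 and 23.9 CPM in ERAA and 8.63 and 9.21 CPM in ERDD (log2 -1.45 ± 0.07), and KDM4B fell by 0.74. KDM7A, a close relative of PHF8 picked after its values were seen, fell by 0.67. Of 29 enzymes of histone and DNA methylation, 13 were higher (44.8%, against 34.8%) and 3 lower (10.3%, against 33.3%). Together 55.2% were called, with a median of 0.16. UHRF1, which brings DNA methyltransferase to replicating DNA, stood at 69.6 and 62 CPM in ERAA and 116 and 119 CPM in ERDD (log2 0.83 ± 0.06), and PRMT5, an arginine methyltransferase, at 79.3 and 82.6 CPM in ERAA and 133 and 137 CPM in ERDD (log2 0.73 ± 0.04). These 2 genes separated the lines.

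Lists of inflammatory and growth factor signalling held more genes lower than higher. Of 30 NF-kB targets and chemokines, 16 were lower (53.3%, against 33.3%) and 7 higher (median -0.24). TNFAIP3, a brake on NF-kB, stood at 11.3 and 9.51 CPM in ERAA and 3.65 and 3.27 CPM in ERDD (log2 -1.46 ± 0.11), NFKB2 fell by 1.21 and TNF by 1.16, while the inhibitor NFKBIE rose by 0.84. Of 27 immediate early genes, 13 were lower (48.1%) and 7 higher, with JUN at 61.9 and 61.5 CPM in ERAA and 27.1 and 30.0 CPM in ERDD (log2 -1.10 ± 0.06) and DUSP6, a phosphatase that limits ERK signalling, lower by 0.71. Of 34 cytokine and growth factor receptors, 19 were lower (55.9%) and 10 higher. IL17RA stood at 674 and 633 CPM in ERAA and 345 and 350.4 CPM in ERDD (log2 -0.91 ± 0.04), and IL10RA, the receptor of an anti-inflammatory cytokine, fell by 0.89. Of 38 adhesion and matrix genes, 17 were lower (44.7%) and 14 higher (36.8%). ITGB2, the shared chain of leukocyte integrins, stood at 1993 and 2054 CPM in ERAA and 916 and 930.2 CPM in ERDD (log2 -1.13 ± 0.04) and did not overlap between the lines.

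Death genes and lysosomal genes moved in mixed directions. Of 41 apoptosis genes, 19 were higher (46.3%, against 34.8%) and 12 lower (29.3%; median 0.15). CYCS, cytochrome c, stood at 119 and 128 CPM in ERAA and 207 and 207 CPM in ERDD (log2 0.74 ± 0.05), CASP1, the inflammatory caspase, rose by 0.57, and BBC3, the p53 target PUMA, stood at 22 and 23.8 CPM in ERAA and 11 and 9.19 CPM in ERDD (log2 -1.15 ± 0.10). Of 46 lysosome and phagosome genes, 18 were higher and 18 lower (39.1% each; median 0.03). SCARB2, a carrier of a lysosomal enzyme, and the protease CTSL rose by 1.00 and 1.21, and the peptidase TPP1 fell by 1.01.

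Interferon-stimulated genes held the highest fold changes. Cells that sense interferon switch on this set through STAT and IRF factors bound to an element in their promoters. Of 201 tested, 159 were higher (79.1%, against 34.8%) and 22 lower, with 78 and 4 at 2-fold or more (median 0.63). IFI27, a mitochondrial interferon-induced protein, stood at 1.28 and 1.54 CPM in ERAA and 119 and 124 CPM in ERDD, 86.1-fold higher in ERDD (log2 6.0 ± 0.09, adjusted p = 5.4e-09). MX1, an antiviral GTPase, stood at 17.6 and 17.5 CPM in ERAA and 457 and 462 CPM in ERDD (log2 4.67 ± 0.04), and ISG15, a ubiquitin-like modifier, at 10.4 and 11.9 CPM in ERAA and 178 and 179 CPM in ERDD (log2 3.95 ± 0.07). ERDD lay far above ERAA in each, with ERPHF8 between them, at 12.5, 106 and 36.8 CPM.

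The antiviral genes IFI44L, IFI44, OAS3, OAS2 and IFI6 rose by 5.88, 4.36, 3.99, 3.77 and 3.62. IFIT1 rose by 4.24, with a span inside that of LIPA. Of the 4 largest falls in this list, TXNIP, an inhibitor of thioredoxin and glucose uptake, stood at 1155 and 1148 CPM in ERAA and 395 and 404 CPM in ERDD (log2 -1.53 ± 0.04), and VAMP5 fell by 1.2. HSH2D (log2 -1.14) and WARS (-1.07) overlap other genes, and WARS is also on the list of tRNA synthetases. The interferon genes themselves were near 0. Of 21 in the files, 0 passed the filter, and 19 had at most 3 reads in each of the 4 libraries. IFNB1 had 1 and 1 reads in ERAA and 4 and 5 in ERDD. Of 29 genes of sensing and signalling, 15 were higher (51.7%) and 7 lower (median 0.19). IFI16, a DNA sensor, stood at 59.2 and 55.1 CPM in ERAA and 198 and 198 CPM in ERDD (log2 1.79 ± 0.05), the adaptor MYD88 rose by 0.94, and TMEM173, which encodes STING, fell by 0.56.

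The interferon element was searched on both strands in the same windows as 2 copies of GAAA with any 2 bases between them. Of 148 interferon-stimulated genes with a window, 67 had a match (45.3%), against 4.17% of the tested genes with a window. Of the 62 that were at least 2-fold higher, 39 had one (62.9%). Among the 177 genes at least 2-fold higher on no interferon list, 4 had one (2.26%), and AXL was 1 of them. The match of AXL is shown beside those of leading interferon genes, in capitals. IFI27, MX1 and AXL have other RefSeq starts too, and each distance is to the start whose window held the match. The AXL match lies inside the deposited span of the gene, which begins at 41219203. The other matches shown also lie inside the deposited spans of their genes.
IFI27 (chr14:94110631-94110660, plus strand, 85 bases before the start): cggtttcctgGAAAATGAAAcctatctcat
IFI44L (chr1:78620365-78620394, plus strand, 63 bases before the start): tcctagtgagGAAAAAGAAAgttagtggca
ISG15 (chr1:1013380-1013409, plus strand, 97 bases before the start): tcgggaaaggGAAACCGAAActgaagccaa
MX1 (chr21:41431844-41431873, plus strand, 186 bases before the start, element on the opposite strand): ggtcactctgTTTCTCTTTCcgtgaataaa
AXL (chr19:41226557-41226586, plus strand, 178 bases before the start): cgctgacggaGAAAAGGAAActttgtgtct

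**Figure D5:**
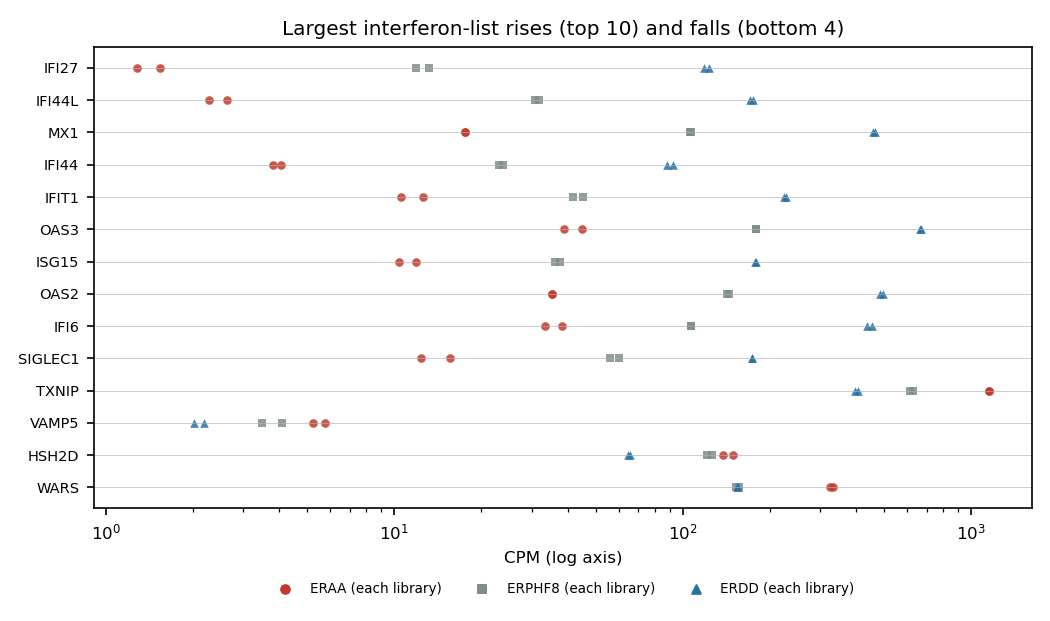
Levels of the 10 largest rises and 4 largest falls on the interferon lists, in CPM on a log axis, with 1 point per library. For the 10 rises, ERDD (triangles) lies above ERPHF8 (squares), which lies above ERAA (circles).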

How the data were processed

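Poly(A)-selected RNA of 6 libraries entered the fit: 2 each of ERAA and ERDD, and 2 of ERPHF8 for the spread. The authors deposited RPKM per gene for 19784 genes on hg38; STAR 2.7.0c, SAMtools 1.9 and DESeq2 are named in the submitters' processing notes, and the counting tool is not given in the sources used here. Multiplied by the gene span, introns included, 100% of the deposited RPKM values came out as whole reads within 0.001. Reads were counted over the whole span without strand, so the 6569 genes that overlap another share reads with it. CPM was taken as RPKM times span in kilobases. Genes with at least 1 CPM in 2 of the 6 libraries were fitted with limma 3.58.1 (R 4.3.3, intensity-dependent prior) to log2(CPM + 0.5), by group alone. On simulated data for this comparison (13699 genes), 80% of 1.25-fold, 96% of 1.5-fold and 100% of 2-fold and 4-fold changes were called, and 0.0889% of unchanged genes. The simulation gave every gene and line the same spread beyond counting noise. In the real libraries the squared difference between replicates was 16.4 counting variances per gene in ERAA and 1.93 in ERDD. The simulated shares check the fit and do not give the error rates of the real comparison.

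The rule named PHF8 and ESR1; outside the interferon lists the 15 largest rises and falls by log2 and 8 by CPM, among called genes with at least 1 CPM in the higher group and no overlap; 10 and 4 interferon genes likewise; and up to 4 genes of each list by smallest p. Other genes were chosen after their values were seen. A few genes picked by this rule are not reported here. The comparison and the lists were chosen with earlier results of these data known. Counts by list carry no test of the list and are to be read against the shares of all genes tested that were called. Promoter windows are from RefSeq (GRCh38.p14) and matched 10441 of the 13831 genes by symbol. Coordinates of genes are those deposited (hg38, counted from 1).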

Additional observations from a re-analysis of the deposited data

How the results depend on the processing

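The number of changed genes was 9415 (4807 higher and 4608 lower, limma, adjusted p below 0.05). Under other pseudocounts, filters, only the 4 ERAA and ERDD libraries, and 2 settings chosen after seeing the data (median-ratio scaling, voom on recovered reads), it stayed between 8373 and 9489. With the replicate number as a replicate block it was 9068 (4627 higher and 4441 lower). Libraries that share a number did not deviate together (correlations of -0.34 to 0.10), so the numbers were not taken to pair them. Among the 8476 genes that overlap no other, 5711 changed (2953 higher and 2758 lower), since fewer genes were tested. Leaving out 1 library gave 7397 to 10038 changed genes (3782 to 5316 higher, 3615 to 5227 lower). Median-ratio scaling shifted the median change by -0.003. Of 215 single genes, 1 changed its call and 0 their direction under the settings run: NGFRAP1, of the stemness score, lost its call without ERDD replicate 1 or 2 (log2 -0.27 and -0.26, adjusted p 0.052 and 0.053). The median of the histone demethylases was 0.057 without ERAA replicate 1 (-0.06 with all libraries, and -0.16 to 0.057 with 1 library left out), and that of the MHC class I list was -0.21 among genes overlapping no other (0.22 over all members, of which 10 drop out); the cause was not tested. TMM factors, edgeR and DESeq2 were not run, because the deposited unit is RPKM. With 2 libraries per line, 1 library can move a count as shown, and no interval is given for reads beyond the spread between libraries.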

Other observations

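Gene families defined by symbol after values had been seen are given here as values only. Of all genes tested, 34.8% were higher in ERDD than in ERAA and 33.3% lower, together 68.1%. Of 6 metallothionein genes tested, which bind zinc and copper, 6 were higher and 4 at least 2-fold (median 1.13, limma, adjusted p below 0.05 for each). MT2A stood at 15.1 and 17.5 CPM in ERAA and 72.7 and 71.2 CPM in ERDD (log2 2.11 ± 0.07). Of 450 zinc finger genes with ZNF symbols, 212 were lower (47.1%) and 55 higher (12.2%; median -0.19), together 59.3%. At least 2-fold lower were 7, against 0 higher, where 3.82% of all genes tested were at least 2-fold lower and 2.28% higher. Their summed level was 13162 and 11947 CPM in ERAA and 11377 and 11208 CPM in ERDD, so the spread between the ERAA libraries was larger than the gap from the lower of them to ERDD. Chromosome 19, which holds many of these genes, had the lowest median change of any chromosome (-0.11 over 1089 genes), and chromosome 18 the highest (0.10 over 191 genes).

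Other families moved in either direction. Of 23 collagen genes tested, 12 were lower (52.2%, against 33.3% of all genes tested) and 3 higher (13.0%, against 34.8%; median -0.34). The share called, 65.2%, was near that of all genes tested (68.1%). COL6A2, a chain of collagen VI picked after its values were seen, stood at 97.4 and 97.5 CPM in ERAA and 27.3 and 24 CPM in ERDD (log2 -1.91 ± 0.06). Of 24 semaphorins and plexins, guidance ligands and their receptors, 12 were lower (50%) and 2 higher (8.33%), together 58.3% and so below the share of all genes. Of 45 potassium channel genes, 21 were lower (46.7%) and 10 higher (22.2%), together 68.9% and so near that share. Of 13 tubulin genes, 8 were higher (61.5%) and 3 lower (23.1%; median 0.63). TUBB6 stood at 188 and 202 CPM in ERAA and 368 and 384 CPM in ERDD (log2 0.95 ± 0.05). Of 17 histone genes, 10 were higher (58.8%, against 34.8% of all genes tested) and 0 lower. Most histone messages carry no poly(A) tail, and these libraries were poly(A)-selected. Their levels here were low (a summed 89.2 and 89.0 CPM in ERAA).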
